A study of Rattus norvegicus with 22 samples.

Results

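The genes described are 9 members of the Wnt pathway measured in oral squamous cell carcinomas (OSCC) of the rat tongue and in adjacent tongue of the same animals: the secreted antagonists Wif1, Sfrp1, Sfrp2, Sfrp4, Frzb and Dkk3, the adenomatosis polyposis coli homologue Apc2, and the pathway targets Axin2 and Lef1. They were chosen by gene name, and all 9 were found among the 19165 named genes of the array, each read from its brightest probe over the 22 arrays. Male F344 rats, about 33 weeks of age, had drunk water with the carcinogen 4-nitroquinoline-1-oxide (4-NQO), at 20 ppm, over 10 weeks, and both tissues were taken 23 to 26 weeks after the first exposure. The 11 animals each gave 1 OSCC and 1 piece of phenotypically normal tongue. The titles carry the word untreated on every array and the labels give no treatment for normal tissue, but by the protocol every rat was exposed to 4-NQO, so the normal tissue is exposed tissue and no unexposed tongue was compared. Each array read 1 RNA sample of a mixed tissue piece, in which fewer cells of a type and less RNA per cell cannot be told apart.

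Wnt ligands bind Frizzled receptors and Lrp co-receptors, which inactivates a cytoplasmic destruction complex of Axin, Apc and kinases and lets β-catenin enter the nucleus. There β-catenin joins factors of the TCF/LEF family and activates target genes, among them Axin2, which feeds back on the pathway. Wif1, the secreted frizzled-related proteins (Sfrp1, Sfrp2, Sfrp4 and Frzb) and Dickkopf proteins act outside the cell, the first groups by binding ligands. In the tongue the pathway is known for its part in forming and renewing the taste and filiform papillae.

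In OSCC the transcripts of Sfrp4 and Sfrp1 were higher, by 5.68-fold and 3.22-fold, and those of Lef1, Wif1 and Apc2 were lower, by 4.36-fold, 2.84-fold and 2.07-fold. Sfrp2, Frzb, Dkk3 and Axin2 did not pass the threshold. A gene was called at a Benjamini-Hochberg adjusted p below 0.05 over all 30367 probes together with a change of at least 2-fold, in limma's moderated paired test. By this rule 5 of the 9 members were called, against 13.8% of all probes. In the same fit 2 of the 9 were called higher, against 7.48% of named genes, and 3 were called lower, against 7.24%. Wif1 and Apc2 had been picked by the study from these same arrays, so their direction is not independent evidence. All 9 members were chosen with earlier results of these data known, so the counts beside these shares are a description and not a test.

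Signals are given as log2 of the processed signal relative to the 75th percentile of its array, so that 0 is the 75th percentile. Levels of different probes are not compared. That percentile was at a signal of 237 to 655 in normal tissue and 339 to 1414 in OSCC, and 48.4% to 56.1% of probes in normal tissue and 52.3% to 65.5% in OSCC were well above background. The median change of all probes was -0.24 on the log2 scale and lay between -0.44 (array median scaling) and -0.03 (quantile normalization) when the arrays were scaled in other ways. Relative to the all-probe median of -0.24 the changes were 2.75 for Sfrp4, 1.93 for Sfrp1, -1.88 for Lef1, -1.26 for Wif1 and -0.81 for Apc2. That median depends on dim probes. Over the 17002 probes well above background on at least 11 arrays the median change was -0.04, so these relative values hold only for the all-probe median. Of all probes 2083 were called higher and 2118 lower, and with array median scaling 1541 and 3154.

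No slide held both tissues, since the normal samples were on 3 slides and the OSCC on 4 others. All normal samples and the OSCC of rats 4 and 9 were scanned on the first scan day, and the other 9 OSCC on the second. When scan day was a further term, the tissue difference rested on rats 4 and 9 and none of the 9 members was called by limma, with Lef1, Axin2, Sfrp4, Apc2 and Sfrp1 at unadjusted p-values of 0.000164, 0.00052, 0.00435, 0.0121 and 0.0484. In that fit 33.8% of all named genes had an unadjusted p below 0.05. The value from those pairs is given with each member. The study named rats 21, 22 and 24 as examples of variable expression. Over 13603 well-measured probes their change had a mean correlation with the other pairs of 0.396, 0.201 and 0.146. In the other 8 rats this was 0.425 to 0.625, lowest in rat 17 and so close to rat 21. The mean change of 12 skeletal muscle markers was 0.99 to 1.77 in rats 21, 22 and 24, and -4.16 to -0.93 in the other 8. The stratified epithelium markers, which define the tissue of origin, were measured in both tissues. Their summed linear level was 486 to 1008 in normal tongue and 254 to 1051 in OSCC, in units of the array's 75th percentile. Of 9 such markers 2 were called higher and 1 lower. Their mean change was -2.07 in rat 24, 0.45 in rat 21, -0.07 in rat 22 and -0.54 to 0.59 in the other 8 rats.

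**Figure D1:**
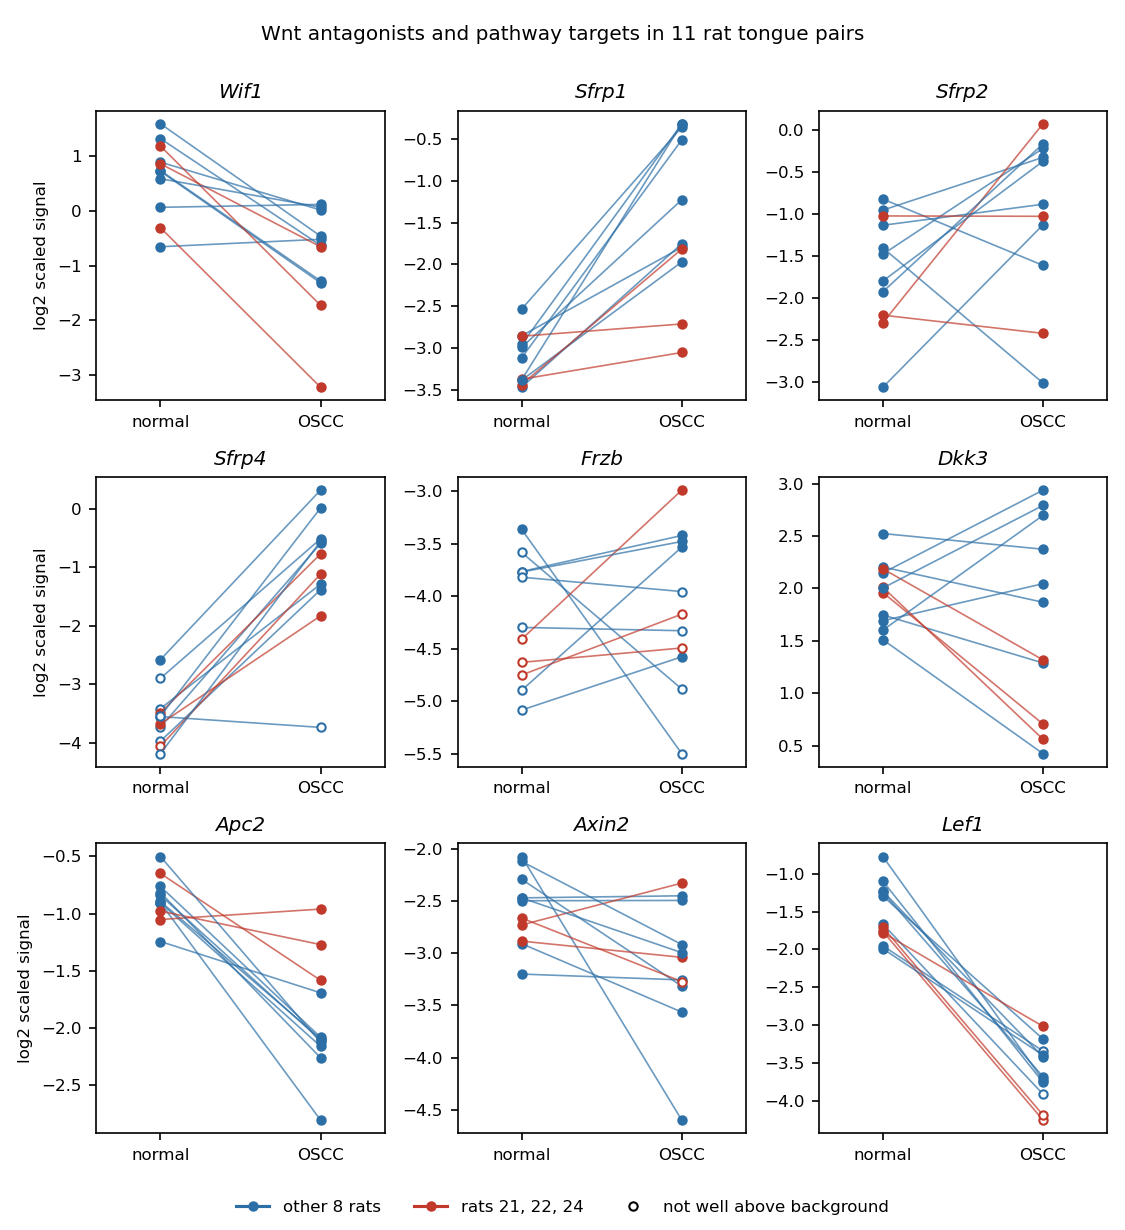
Log2 scaled signal (vertical axis, 0 is the array's 75th percentile) of the 9 members in normal tongue and OSCC, with 1 line per rat. Open points were not well above background and red lines are rats 21, 22 and 24. All 11 lines fall for Lef1 and rise for Sfrp1, 10 of 11 rise for Sfrp4 and fall for Apc2, and those of Sfrp2, Frzb and Dkk3 cross.

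Wif1, which binds Wnt ligands in the extracellular space, was read by a probe with 10 spots at chr7:60399964-60400023 (rn4, plus strand). In normal tongue its log2 signal was -0.66 at the lowest, 0.73 at the median and 1.58 at the highest. In OSCC these values were -3.22, -0.63 and 0.11. The groups overlapped, as 4 OSCC lay below every normal sample. The difference was -1.50 ± 0.30 (SE, n = 11 pairs, limma adjusted p = 0.00244), lower in 9 of 11 pairs. Rats 9 and 26 were the exceptions, at 0.14 and 0.05. The fall was deepest in rats 24 and 21, at -2.91 and -2.90, both among the rats with more muscle marker signal in OSCC. Rat 22, which also had more muscle signal, was at -1.51, beside a median of -1.94 over all pairs. Within the first scan day the pairs differed, at -2.05 in rat 4 and 0.14 in rat 9, with a mean of -0.96. Without rats 21, 22 and 24 Wif1 was still called.

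Sfrp1, a secreted Frizzled-like protein that binds ligands, rose in every pair. Its probe at chr16:73030329-73030388 (rn4, minus strand) read -3.47 to -2.53 in normal tissue (median -3.12) and -3.06 to -0.31 in OSCC (median -1.75). In 9 OSCC the signal was above all normal samples, and the 2 that overlapped were those of rats 21 and 22. The difference was 1.69 ± 0.26 (SE, n = 11 pairs, limma adjusted p = 0.000697). Single pairs ranged from 0.15 in rat 22 to 3.07 in rat 25. The mean of rats 4 and 9, scanned on the same day as their normal tissue, was 1.39. With normexp background correction the difference was 1.05.

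Sfrp4, of the same family, had the largest rise of the 9. Its probe at chr17:53121979-53122038 (rn4, minus strand) read -4.18 to -2.58 in normal tissue (median -3.55) and -3.73 to 0.31 in OSCC (median -0.77). It was well above background in 3 of 11 normal samples and in 10 of 11 OSCC, so the normal level is near the limit of the array. The tissues overlapped in 1 OSCC, that of rat 17, which was also the 1 OSCC not well above background. The difference was 2.51 ± 0.29 (SE, n = 11 pairs, limma adjusted p = 0.000196), and it was positive in 10 pairs. The mean of rats 4 and 9 was 2.51, the same to 2 decimals as over all pairs. With normexp background correction the difference was 1.13, still called.

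Rat 17 was also the pair in which the fibroblast and matrix markers did not rise. Of 12 such markers (collagens, Dcn, Fap, Postn and others) 7 were called higher. Their summed level was 60.1 to 103 in normal tissue and 53.5 to 503 in OSCC, all 12 were above background on some array, and their mean change was positive in 10 of 11 pairs and -0.85 in rat 17. The order did not hold in other rats. In rats 21, 22 and 24 the list rose by only 0.49, 0.75 and 0.39, while Sfrp4 rose by 1.84, 2.93 and 2.71. Sfrp1 rose by 1.42 in rat 17, and by 0.32, 0.15 and 1.62 in rats 21, 22 and 24. Secreted frizzled-related proteins are known products of fibroblasts, and the part of these cells in the Sfrp1 and Sfrp4 results was not tested.

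Sfrp2 and Frzb did not follow them. Sfrp2, at chr2:175486729-175486788 (rn4, plus strand), was well above background on every array and read -3.06 to -0.82 in normal tissue (median -1.48) and -3.01 to 0.07 in OSCC (median -0.88). The difference of 0.64 ± 0.34 (SE, n = 11 pairs, limma adjusted p = 0.138) was positive in 7 pairs and ranged from -1.60 in rat 17 to 2.36 in rat 24. The mean of rats 4 and 9 was 0.57. In 5 OSCC the signal lay above all normal samples, and the rest were within their range.

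Frzb, also called Sfrp3, was read at chr3:63350505-63350564 (rn4, minus strand) and was well above background in 1 normal sample and 5 OSCC. Its signal was -5.08 to -3.36 in normal tissue (median -4.30) and -5.50 to -2.99 in OSCC (median -4.17), so the ranges overlapped almost wholly. The difference was 0.09 ± 0.29 (SE, n = 11 pairs, limma adjusted p = 0.801), and it turned negative with normexp background correction, quantile normalization, array median scaling or scan day as a term. The mean of rats 4 and 9 was -0.40, and rat 17 had the lowest change, at -2.13.

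Sfrp1, Sfrp2, Sfrp4 and Frzb were compared with each other within rats, along with Axin2 against Lef1, by an exact two-sided sign-flip permutation test over the 11 pairs (7 comparisons, smallest possible p = 0.000977). The change of Sfrp4 was larger than that of Sfrp2 in all 11 rats, by 1.87 ± 1.06 on the log2 scale (SD, adjusted exact p = 0.00228). It was also larger than that of Frzb in all 11, by 2.41 ± 0.90 (SD, adjusted exact p = 0.00228), though Frzb was mostly near background. The change of Sfrp1 exceeded that of Sfrp2 in 9 of 11 rats, by 1.05 ± 1.08 (SD, adjusted exact p = 0.0178), and that of Frzb in 10, by 1.59 ± 1.32 (SD, adjusted exact p = 0.00854). Sfrp1 and Sfrp4 differed by -0.82 ± 1.19 (SD), with Sfrp1 the smaller in 8 rats and an adjusted exact p of 0.057. Sfrp2 and Frzb differed by 0.54 ± 1.29 (SD, adjusted exact p = 0.194). With normexp background correction Sfrp4 exceeded Sfrp2 by 0.63 in 9 of 11 rats (adjusted exact p = 0.0287) and Frzb by 1.25, and Sfrp1 exceeded Sfrp2 by 0.55. With it Sfrp1 and Sfrp4 differed by -0.077 (adjusted exact p = 0.767) and Sfrp2 and Frzb by 0.62 (adjusted exact p = 0.0467).

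Dkk3, a divergent Dickkopf protein, was read at chr1:169924663-169924722 (rn4, minus strand), well above background on every array. Its normal samples were close together, at 1.51 to 2.52 (median 2.004), whereas the OSCC spread from 0.42 to 2.94 (median 1.87). Of the OSCC, 3 were above all normal samples and 5 below. The mean difference of -0.23 ± 0.25 (SE, n = 11 pairs, limma adjusted p = 0.449) therefore averages pairs of opposite sign. In rats 21, 22 and 24 the change was -1.45 to -0.87, and in the other 8 rats it was -1.09 to 1.09 with a median of 0.10. Without rats 21, 22 and 24 the mean difference was 0.12, and the mean of rats 4 and 9 was -0.40.

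Apc2, a homologue of the tumour suppressor Apc that can act in β-catenin turnover, was represented by probes that gave different results. The brighter one, with 10 spots at chr7:10903772-10903831 (rn4, minus strand), read -1.24 to -0.50 in normal tissue (median -0.89) and -2.80 to -0.96 in OSCC (median -2.09). The groups were nearly separate, with 10 of 11 OSCC below every normal sample. The difference was -1.05 ± 0.18 (SE, n = 11 pairs, limma adjusted p = 0.00113), lower in 10 pairs, and it lies close to the 2-fold limit. Leaving out rat 13 or rat 25 gave -0.97 and -0.99, which keep the adjusted p but miss the fold, and normexp background correction gave -0.64 (limma adjusted p = 0.0742).

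The second Apc2 probe, at chr7:10906430-10906489 (rn4, minus strand), was well above background in 1 normal sample and 2 OSCC. It read -4.91 to -2.97 in normal tissue (median -4.02) and -4.96 to -3.68 in OSCC (median -4.16), with a difference of -0.21 ± 0.20 (SE, n = 11 pairs, limma adjusted p = 0.396). The call rests on 1 probe, whose sequence holds a 19-base stretch 2 times. Of the 30367 probes, 197 (0.649%) carry an internal repeat at least as long. No other probe shared a run of 15 bases with it on either strand. The repeat and the whole second probe are shown so that the probes can be set side by side, and the part of the repeat or of the faint second probe in their different readings was not tested.
Repeat in the brighter Apc2 probe: ctgatctacagtgtacact
Second Apc2 probe: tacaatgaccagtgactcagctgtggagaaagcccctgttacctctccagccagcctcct

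The smallest Apc2 changes were those of rats 24 and 22. Muscle signal did not fall in rats 21, 22 and 24, where Apc2 changed by -0.93, -0.29 and 0.09. In the other 8 rats the Apc2 change was -1.90 to -0.45. Of the 12 skeletal muscle markers 9 were called lower and 1 higher, and all 12 were well above background on some array. Their summed level was 1568 to 3127 in normal tissue and 88.6 to 3552 in OSCC. The nerve and Schwann cell markers had a negative mean change in 10 of 11 pairs, rats 21 (-1.72) and 22 (-0.38) included. It was 0.37 in rat 24, the 1 pair in which Apc2 was higher. Of these 12 markers 7 were called lower and 1 was never well above background. Their summed level was 16.9 to 28.3 in normal tissue and 4.23 to 30.7 in OSCC. Apc2 is best known from nervous tissue, and the part of either cell type in its change was not tested. Within the first scan day Apc2 changed by -1.25 in rat 4 and -1.31 in rat 9, which is no smaller than over all pairs.

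Lef1, the nuclear factor that carries β-catenin to target promoters and is itself reported as a target, fell in every pair. Its brightest probe read -1.99 to -0.77 in normal tissue (median -1.67) and -4.25 to -3.02 in OSCC (median -3.68). The groups did not overlap. The difference was -2.12 ± 0.17 (SE, n = 11 pairs, limma adjusted p = 4.64e-05), and single pairs lay between -2.95 in rat 13 and -1.24 in rat 22. The signal was well above background in all normal samples and in 7 of 11 OSCC. In rats 4 and 9 the changes were -2.66 and -1.89. With normexp background correction the difference was -0.90 and not called (limma adjusted p = 0.0616).

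The other Lef1 probes gave the same direction in all 11 pairs, with no overlap between tissues. They changed by -2.19 ± 0.21 (SE, n = 11 pairs, limma adjusted p = 8.64e-05) and -2.44 ± 0.31 (SE, n = 11 pairs, limma adjusted p = 0.000269). The second probe was well above background in only 2 of 11 OSCC and the third in 9, so the size of the second probe's fall is set against a level mostly at background. The first and second probes are nearly one sequence: they overlap over 52 bases and differ at 4 of them, given as A19G, C40T, G46T and C52G with positions counted from 1 at the 5′ end of the first probe and the base of the first probe written first. They are thus not independent readings, while the third probe lies elsewhere in the gene. Capitals mark the bases that differ. The probes lie at chr2:228659730-228659789, chr2:228659738-228659797 and chr2:228668698-228668757 (rn4, plus strand).
Lef1 probe 1: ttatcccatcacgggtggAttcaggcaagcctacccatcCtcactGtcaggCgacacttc
Lef1 probe 2: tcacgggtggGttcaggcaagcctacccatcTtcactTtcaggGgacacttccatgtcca
Lef1 probe 3: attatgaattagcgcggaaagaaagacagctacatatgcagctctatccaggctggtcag

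**Figure D2:**
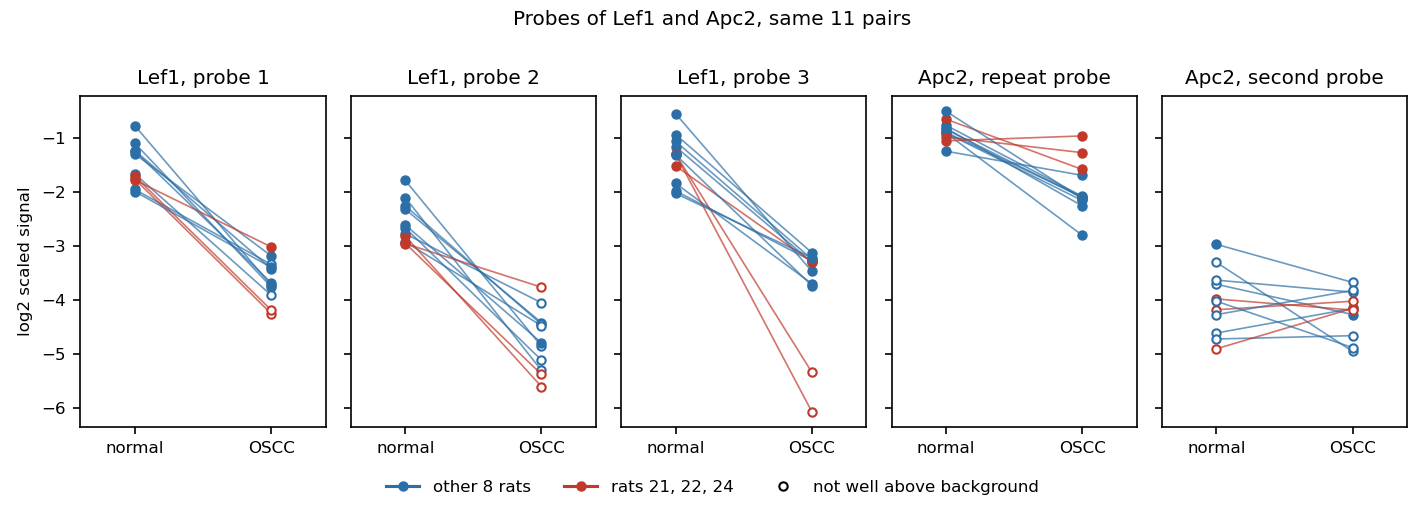
Log2 scaled signal of the 3 Lef1 probes and the 2 Apc2 probes in normal tongue and OSCC, with 1 line per rat, open points not well above background and rats 21, 22 and 24 in red. The Lef1 probes fall in all 11 rats, whereas only the repeat-bearing Apc2 probe falls and the second one stays near background.

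Lef1 is known from hair follicles and from the filiform papillae, whose spines hold hair-type keratins. Of 11 hair-type keratin and papilla genes measured, 9 were called lower in OSCC. Krt84, not called, and Hoxc13, called lower, were not well above background in any sample. Their summed level was 1.59 to 89.2 in normal tissue and 0.244 to 17.9 in OSCC. The mean change of the list was negative in 10 pairs and 1.96 in rat 22, which had the smallest fall of Lef1 on its brightest probe. On that probe the order did not hold in other rats. The list changed by -4.66 in rat 17 and -0.84 in rat 11, where Lef1 changed by -1.39 and -2.19. On the third Lef1 probe rat 22 was at -1.78, and the smallest falls were in rats 26 and 17, at -1.19 and -1.30. Lef1 is also known from T cells, and of 10 T cell markers 7 were called higher. Their summed level was 1.11 to 3.90 in normal tissue and 1.71 to 8.39 in OSCC. Their mean change was positive in 8 pairs and negative in rats 17, 22 and 24, at -0.18, -1.04 and -0.38. The part of papilla tissue or of T cells in the Lef1 result was not tested.

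Axin2, a scaffold of the destruction complex and a widely used readout of β-catenin activity, was read at chr10:98321105-98321164 (rn4, plus strand). The signal was -3.20 to -2.08 in normal tissue (median -2.50) and -4.60 to -2.33 in OSCC (median -3.04), with 5 OSCC below all normal samples. The difference of -0.54 ± 0.22 (SE, n = 11 pairs, limma adjusted p = 0.0662) was negative in 8 pairs and did not pass. The limma adjusted p was 0.0285 with quantile normalization, 0.0164 with array median scaling and 0.0415 without the replicate block. It was 0.0434 without rats 21, 22 and 24, and 0.0355 without rat 24 alone. In these fits Axin2 missed only the 2-fold limit, whereas with normexp background correction the adjusted p was 0.791. The largest falls were in rats 4 and 9, at -2.52 and -1.02, which are also the pairs scanned on 1 day, and the other 9 rats lay between -0.79 and 0.40. Lef1 fell more than Axin2 in all 11 rats, by 1.59 ± 0.86 on the log2 scale (SD, adjusted exact p = 0.00228). With normexp background correction this was 0.58, in 10 of 11 rats.

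Of the 9 members, 6 have a promoter in the RefSeq table used (build GRCr8): Wif1, Apc2, Sfrp2, Frzb, Axin2 and Lef1. The 250 bases before each start were searched on both strands for CTTTGAT and CTTTGAA, letters that TCF/LEF factors are known to bind, and 7.58% of 33469 promoters hold at least 1 of them. Among the 6 members these letters were found only upstream of Axin2, with 2 matches on the strand shown, and a match is a description of letters and not a binding site. The Axin2 probe and this upstream sequence, chr10:94398535-94398784 (GRCr8, plus strand), are given with the matches in capitals.
Axin2 probe: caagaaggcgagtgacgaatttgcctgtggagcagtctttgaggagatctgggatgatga
Axin2 upstream sequence: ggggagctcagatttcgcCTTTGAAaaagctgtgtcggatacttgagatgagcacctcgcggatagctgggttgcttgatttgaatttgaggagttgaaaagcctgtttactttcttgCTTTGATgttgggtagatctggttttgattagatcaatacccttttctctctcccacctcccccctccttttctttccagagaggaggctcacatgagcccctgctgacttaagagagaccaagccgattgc

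**Figure D3:**
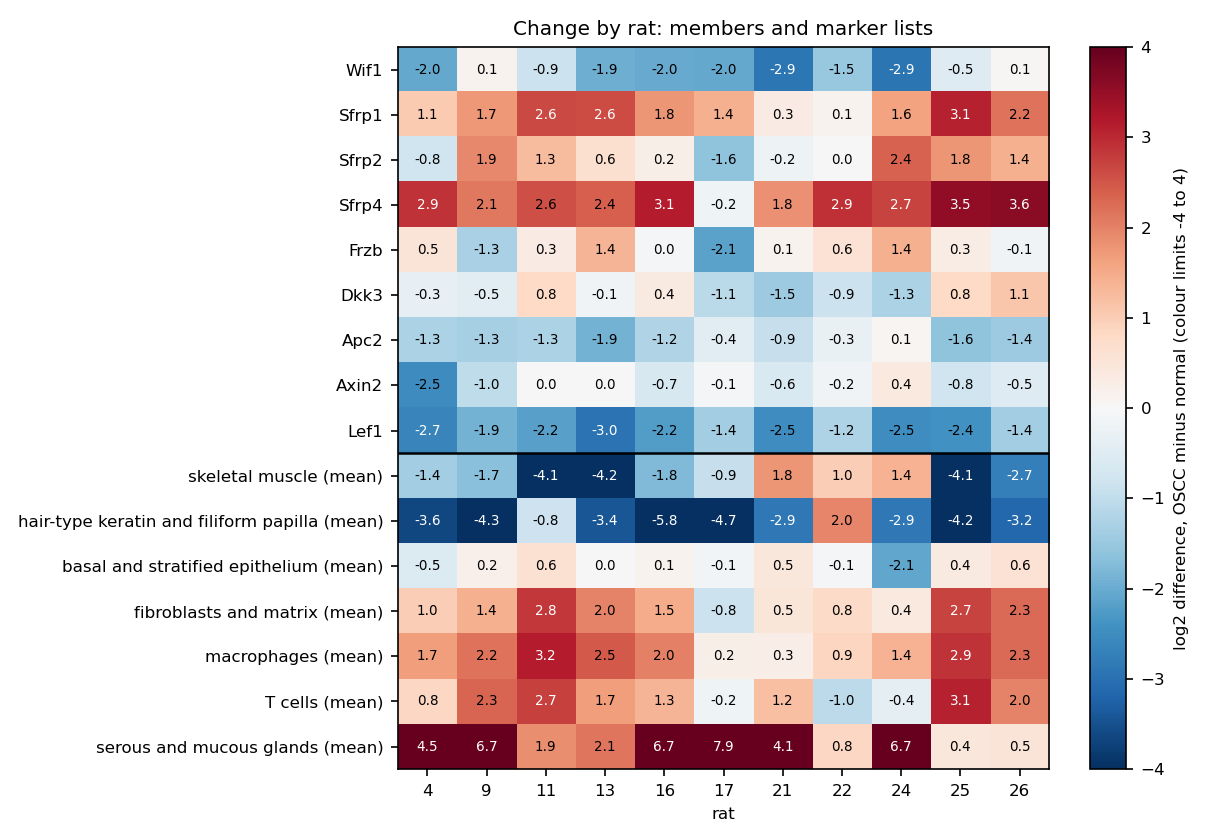
Log2 difference (OSCC minus normal, colour and printed value) in each of the 11 rats for the 9 members, above the line, and the mean change of 7 marker lists, below it. Lef1 is negative throughout, muscle markers are positive only in rats 21, 22 and 24, and rat 17 lacks the rise of Sfrp4 and of fibroblast markers.

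Other genes of the pathway were counted by role from a fixed list of 115, of which 92 were on the array under that name. Of these 8 were called higher, 10 lower and 74 not called, beside 13.8% of all probes, and their median change was -0.11 beside -0.21 over all named genes. The counts of each role stand beside 7.48% of named genes called higher and 7.24% called lower. Among 24 ligands and ligand helpers 3 were higher and 4 lower. Wnt3, a canonical ligand, fell by 2.25 ± 0.41 on the log2 scale (SE, n = 11 pairs, limma adjusted p = 0.00158) and was well above background in 11 normal samples and 5 OSCC. Wnt5a, known for non-canonical signalling, rose by 1.51 ± 0.41 (SE, n = 11 pairs, limma adjusted p = 0.0138), higher in 9 of 11 pairs. Wnt7a was called higher but was not well above background in any normal sample, and Ndp was called lower without being so on any array, so no fold is given for them.

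Of 14 receptors limma called none higher and 2 lower, as did the methods' paired t-test, beside 7.48% and 7.24% of named genes in limma. An unadjusted p below 0.05 was reached by 8 with higher and 5 with lower signal, beside 20.1% and 35.7% of all named genes. Fzd9, a Frizzled receptor, fell by 2.20 ± 0.33 (SE, n = 11 pairs, limma adjusted p = 0.000586) in all 11 pairs, and it was well above background in 11 normal samples and 3 OSCC. Lgr6, a receptor of R-spondins, was called lower although no array read it well above background. Among 9 other secreted or membrane antagonists 1 was higher and 2 lower. Sostdc1, an inhibitor of Wnt and Bmp signalling, fell by 1.996 ± 0.29 on the log2 scale (SE, n = 11 pairs, limma adjusted p = 0.000555) in all 11 pairs. Sfrp5, of the same family as Sfrp1 and Sfrp4, fell by 1.47 ± 0.35 (SE, n = 11 pairs, limma adjusted p = 0.00685) in 10 pairs. Sost, which blocks Lrp co-receptors, was called higher but was not well above background in any normal sample.

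None of the 15 intracellular transducers and none of the 11 nuclear factors was called by limma or by the methods' paired t-test. Beside 7.48% of named genes called higher and 7.24% lower, these lists are too short for the absence of calls to be read as a result. At an unadjusted p below 0.05 and any size, 2 of the transducers were higher and 3 lower, and 1 of the nuclear factors was higher and 5 lower, beside the same 20.1% and 35.7% of named genes. Ctnnb1, which encodes β-catenin, differed by 0.19 ± 0.10 (SE, n = 11 pairs, limma adjusted p = 0.127) and Axin1 by 0.13 ± 0.11 (adjusted p = 0.353). Apc differed by 0.83 ± 0.29 (SE, adjusted p = 0.0367), which is under 2-fold, and it was well above background in 3 normal samples and 9 OSCC. Tcf7, of the same family as Lef1, differed by -0.49 ± 0.23 (SE, adjusted p = 0.0909). Tcf7l2 was not analysed here.

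Among 19 other reported targets 4 were called higher and 2 lower. Wisp1, a matricellular protein, rose by 2.27 ± 0.58 (SE, n = 11 pairs, limma adjusted p = 0.0096) and Fosl1, a subunit of the transcription factor AP-1, by 2.23 ± 0.60 (SE, n = 11 pairs, limma adjusted p = 0.0131). Wisp1 was higher in 8 pairs and lower in 3, and was well above background in 7 normal samples and 9 OSCC. Fosl1 was higher in 10 pairs and at -3.52 in the other. Mmp7, a secreted protease, was called higher but was not well above background in any normal sample. Bambi, a decoy receptor that damps TGF-β signalling, fell by 2.01 ± 0.26 (SE, n = 11 pairs, limma adjusted p = 0.00031) in all 11 pairs. Lgr5, a stem cell marker, was at background level on all arrays. The targets did not move one way, and Axin2 and Lef1 stood among those with negative differences.

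**Figure D4:**
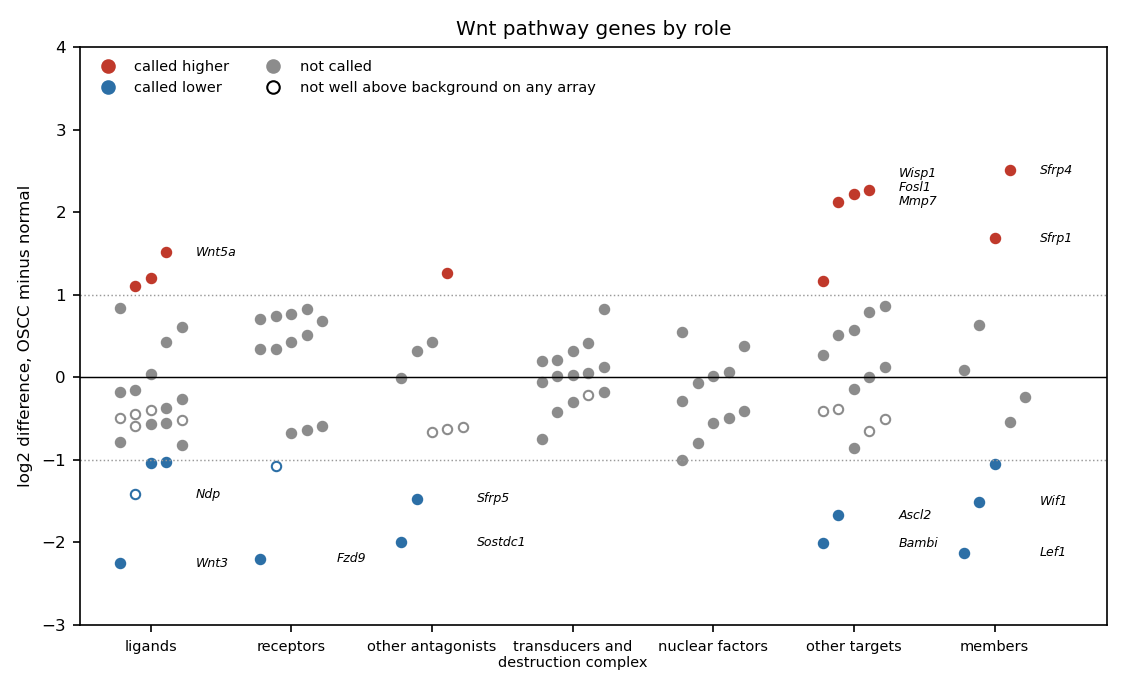
Log2 difference (OSCC minus normal, vertical axis) of 92 pathway genes by role and of the 9 members, coloured by call, with open points for genes not well above background on any array and dotted lines at 2-fold. Calls lie on both sides among ligands, other antagonists, other targets and members, and there are none in the short lists of transducers and nuclear factors. Over all named genes 7.48% were called higher and 7.24% lower.

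Genes whose change over the 11 pairs was most like a member's were taken from 11640 candidates well above background on at least 11 arrays, with Pearson's r as a description. Picking the 3 highest of so many over 11 pairs gives high r values by itself, and whether these exceed that was not tested. For Lef1 they were Ppfibp2, Lypd2 and LOC690326 (r = 0.961, 0.917 and 0.895), and their mean log2 differences were all negative. For Apc2 they were Acot1, Mcf2l and Fgfbp3 (r = 0.960, 0.953 and 0.952), again all negative. For Sfrp1 they were Atp6ap2, Col23a1 and Snx7 (r = 0.969, 0.938 and 0.935), all positive. The other members had such genes with mean differences of either sign or near 0. Wif1 was most like Pde12, Dmtf1 and Zcchc8 (r = 0.927, 0.911 and 0.876), and Sfrp4 most like B4galt6, Adcy4 and Sh3tc1 (r = 0.925, 0.924 and 0.901). Sfrp2 was most like Tlr7, Kctd12 and Cyb5r3 (r = 0.908, 0.882 and 0.880). Dkk3 was most like Iglon5, Fbxo23 and Pglyrp1 (r = 0.978, 0.968 and 0.963), and Axin2 most like Arhgef7, Psmd11 and Rab11b (r = 0.897, 0.896 and 0.880).

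**Figure D5:**
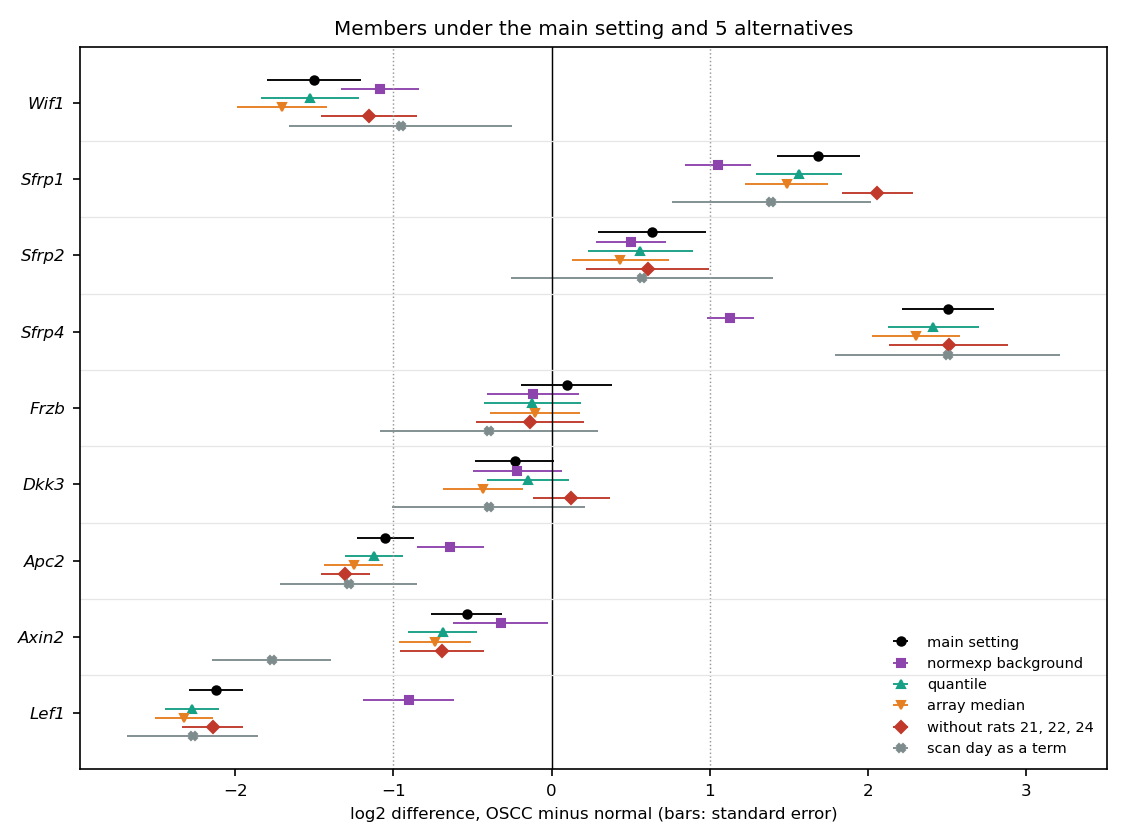
Log2 difference (OSCC minus normal, horizontal axis, bars are standard errors) of the 9 members under the main setting and 5 alternatives, with dotted lines at 2-fold. Sfrp4, Sfrp1, Lef1, Wif1 and Apc2 keep their direction under all 6, and Frzb changes sign.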

How the data were processed

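Total RNA of 11 OSCC and 11 adjacent normal tongue samples was hybridised by the authors to 1-colour Agilent rat arrays. The deposited scanner files hold processed signal intensity from Feature Extraction 9.5.3.1, background-corrected per the file headers, with probes placed on rn4. A deposited ratio of signal to the array's 75th percentile served as an alternative. Outlier spots (0.975%) and control spots were left out, spots of a probe averaged, and log2 intensity scaled to that percentile. Tissues were compared with limma 3.58.1 (R 4.3.3), fitting the rat along with the tissue, over 30367 probes with no dim filter. Both tissues of a rat are paired by origin, and their deviations correlated by -0.21 to 0.24. The number of arrays limits precision. The fit was tested on simulated data. Members, lists and tests were chosen with earlier results of these data known. Named were all members, up to 4 called genes per role by size, 7 preset genes and the 3 genes most like each well-measured member. Alternatives covered background, scaling, dim and outlier spots, scan day, slide, pairing, test and left-out rats. No rn4 annotation was used here, so exons and introns are not given.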

Additional observations from a re-analysis of the deposited data

How the results depend on the processing

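Sfrp4, Sfrp1, Wif1, Lef1 and Apc2 kept their direction under every alternative run, and the first 3 were called under each except scan day as a term. Without the replicate block, an unpaired fit, 5 members, 18 pathway genes and 4227 of all probes were called, and the block changed no call of a member. Normexp background correction gave 3 of 9 members, 5 of 92 pathway genes (18 in the main setting) and 1701 of all probes (4201). With it Lef1 was at -0.90 and Apc2 at -0.64, both with adjusted p over 0.05, at 0.0616 and 0.0742. Scan day as a term gave 0 members, 0 pathway genes and 3 probes in limma, with 5 members, 22 pathway genes and 33.8% of all named genes at an unadjusted p below 0.05. Without rats 21, 22 and 24 there were 6924 probes, and with no fold threshold 43 pathway genes and 13376 probes. With the 75th percentile taken over detected probes Apc2 was at -0.96, under 2-fold. Frzb turned to -0.12 with normexp, -0.12 with quantile normalization, -0.11 with array median scaling, -0.40 with scan day and -0.14 without rats 21, 22 and 24, where Dkk3 turned to 0.12. Leaving out 1 rat each gave 4 to 5 members, 15 to 21 pathway genes and 3649 to 4799 probes, and for Frzb values from -0.038 (without rat 24) and -0.033 (without rat 13) to 0.32. Apc2 lost its call without rat 13 or 25. Sfrp2 minus Frzb passed with normexp at 0.62 (adjusted exact permutation p = 0.0467), and Sfrp1 minus Sfrp4 with quantile normalization at -0.85 (0.049) and with the deposited ratios at -0.84 (0.0467), but it was -0.077 (0.767) with normexp and -0.45 (0.266) without rats 21, 22 and 24. The methods' paired t-test gave 5 members and 18 pathway genes, with 4248 probes unadjusted and 4002 after adjustment, and slide as a random block 5, 18 and 3703. The normal and OSCC arrays share no slide, so slide and tissue cannot be told apart. Faint probes (Sfrp4 in normal tissue, Frzb, the second Apc2 probe) limit what signal over background allows.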
